A study of Mus musculus with 9 samples.

Results

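Thyroid transcript levels of mice labelled Arid2 KO were compared with those of wild-type mice. The comparison takes 6 of the 9 libraries of the series, 3 labelled Arid2 KO and 3 labelled Wildtype. It covers the 17079 genes that passed a filter on low counts, of 33924 in the table. The remaining 3 libraries, labelled Smarcb1 KO, entered the same fit. The labels give only the tissue (thyroid) and the genotype. The age, the strain, the allele, the driver of any recombinase and the cells it acts in are not given in the sources used here, and neither is whether the 3 libraries of a group are separate animals. The p-values therefore measure the spread between these libraries. That spread exceeds counting noise, and how much of it lies between animals is not known.

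Arid2 encodes a DNA-binding subunit of PBAF, a form of the SWI/SNF chromatin remodelling complexes, which use ATP to move or evict nucleosomes. PBAF shares its ATPase and core subunits with the BAF form and differs from it in Arid2, Pbrm1, Brd7 and Phf10. The thyroid is built of follicles whose epithelial cells take up iodide, make hydrogen peroxide at their apical membrane, couple iodine to thyroglobulin and release thyroid hormone. Thyroid tissue also holds C cells, capillaries and connective tissue. Parathyroid, thymus, muscle and airway lie close by.

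Total counts were 89553766, 67482861 and 61179297 in the Arid2-labelled group and 33666251 to 34045321 in wild type, so each Arid2-labelled library was deeper than every wild-type library. Tg, the thyroglobulin gene, took 24.5% to 30.8% of the counts in these 6 libraries. Levels are given as CPM, which are counts relative to the library total after TMM scaling. Xist did not exceed 2.29 CPM and the Y-linked Ddx3y stood at 43.4 to 73.6 CPM in all 6. Arid2-labelled replicate 1 carried markers of developing lymphocytes. Rag1, a recombinase of these cells, measured 502, 0.0156 and 0.145 CPM in Arid2-labelled replicates 1, 2 and 3 and 0 in wild type. Summed over the 18 thymocyte and lymphocyte markers, of which 13 passed the filter, the level was 1686, 33.8 and 44.9 CPM in the Arid2-labelled group and 38.2, 39.1 and 49.3 CPM in wild type. Pth, the parathyroid hormone gene, ranged from 0.129 to 1532 CPM among Arid2-labelled libraries and from 0.0297 to 4172 CPM in wild type. Myh4, a skeletal muscle myosin gene, measured 443, 133 and 699.6 CPM in the Arid2-labelled group against 412, 3.07 and 137 CPM in wild type. In bulk tissue, fewer cells of a type and less RNA per cell cannot be told apart.

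The transcript of the targeted gene did not separate the groups. Arid2 measured 94.6, 77.7 and 59.9 CPM in the Arid2-labelled group against 68.9, 74.96 and 67.8 CPM in wild type, and the groups overlapped. Its log2 fold change was 0.13 (SE 0.16, adjusted p = 0.745 by edgeR's quasi-likelihood test), and an exact two-sided permutation test gave p = 0.7, where 3 against 3 cannot go below 0.1. Counts over the whole gene include exons that a deletion may leave in place, so the level does not check the labels. The libraries are called Arid2-labelled for this reason, also wherever a direction is given. The 4 PBAF subunits held 0 calls, with 0 higher and 0 lower at an unadjusted p under 0.05 (DESeq2 called 0 and 0, limma-voom 0 and 0), and a median log2 fold change of 0.11. Pbrm1, the bromodomain-rich subunit, had a log2 fold change of -0.23 (adjusted p = 0.568, SE 0.17). For Brd7 it was 0.13 (SE 0.10, adjusted p = 0.601) and for Phf10 0.09 (SE 0.14, adjusted p = 0.809). The 15 core and ATPase subunits also held 0 calls, with 1 higher and 0 lower at an unadjusted p under 0.05 (DESeq2 called 0 and 0, limma-voom 0 and 0), and a median log2 fold change of 0.15. Subunits particular to BAF and non-canonical BAF held 0 calls of 9, with 0 higher and 1 lower at an unadjusted p under 0.05 (DESeq2 called 0 and 0, limma-voom 0 and 0), and a median log2 fold change of 0.15. Polycomb genes, whose products make and bind repressive histone marks, held 0 calls of 26, with 2 higher and 1 lower at an unadjusted p under 0.05 (DESeq2 called 0 and 0, limma-voom 0 and 0), and a median log2 fold change of 0.00. Ezh2, the histone methyltransferase among them, measured 51.1, 32.1 and 23.2 CPM in the Arid2-labelled group against 19.4, 18.6 and 22.9 CPM in wild type (adjusted p = 0.185), highest in the library with the lymphocyte markers.

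Across all genes, 95 passed an adjusted p under 0.05 (edgeR's quasi-likelihood test with Benjamini-Hochberg adjustment), which is 0.556% of those tested. Of these, 40 were higher in the Arid2-labelled group (0.234%) and 55 were lower (0.322%), and in all 95 the groups did not overlap. At least a 2-fold difference was found for 33 of the rises and 44 of the falls. The median log2 fold change was 1.88 among rises, -1.56 among falls and 0.02 over all tested genes. At an unadjusted p under 0.05, 1342 genes were higher (7.86%) and 1199 lower (7.02%). Every Arid2-labelled library was above every wild-type library for 2202 genes (12.9%) and below for 2150 (12.6%). Counts within a gene list are to be read beside these shares over all genes. The lists were chosen with earlier results of these data known, so such counts describe the members and test nothing. Single libraries moved the number of calls. It was 45, 5 or 14 when Arid2-labelled replicate 1, 2 or 3 was left out, and 12, 30 or 56 when wild-type replicate 1, 2 or 3 was. All 95 also passed the DESeq2 Wald test, which called 918 genes.

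**Figure D1:**
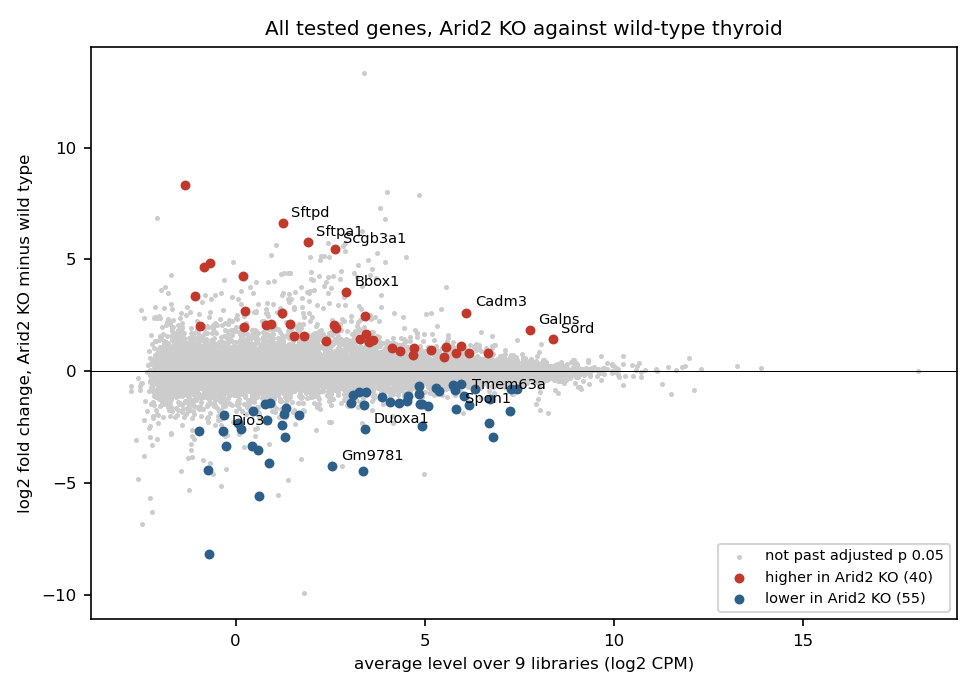
Each point is 1 of the 17079 tested genes, with its average level over 9 libraries (log2 CPM, x axis) and its log2 fold change, Arid2-labelled minus wild type (y axis). Red points are the 40 genes that passed higher, blue points the 55 that passed lower and grey points the rest. Sftpd lies at 6.63, Cadm3 at 2.61 and Duoxa1 at -2.58.

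The rise with the smallest p was in Cadm3, which encodes an immunoglobulin-type adhesion molecule of the cell surface. Cadm3 measured 132, 147 and 201 CPM in the Arid2-labelled group against 24.3, 27.7 and 26.3 CPM in wild type, with a wide gap between the groups (log2 fold change 2.61, SE 0.20, adjusted p = 0.00149). It passed in all 9 fits that each left out 1 library, with a highest adjusted p of 0.0245. Cadm3 was the 1 call among 9 Cadm and nectin adhesion genes, against 0.234% of all genes called higher. The median of these 9 was -0.08. Darc, now named Ackr1, encodes an atypical chemokine receptor of red cells and venules and is annotated next to Cadm3 with an overlapping span. Darc measured 16.6, 21.99 and 33.1 CPM in the Arid2-labelled group against 3.52, 4.33 and 5.07 CPM in wild type, also without overlap (log2 fold change 2.47, SE 0.27, adjusted p = 0.0102). Both genes are annotated on the minus strand, so reads of this pair cannot be told apart by strand where the annotations overlap. Cadm3 also overlaps Aim2 in the annotation, and the levels of Cadm3 and Darc are uncertain. The adjusted p of Darc rose above 0.05 when Arid2-labelled replicate 2 or wild-type replicate 1 was left out, to 0.0584 at the highest.

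The 250 bases before the annotated start of each gene of the pair are printed because both genes rose and lie side by side. They are from RefSeq on build GRCm38.p6, read 5′ to 3′ on the strand of the gene. Capitals mark matches to 6 motifs, searched on both strands.
Cadm3 (chr1:173367696-173367945, minus strand): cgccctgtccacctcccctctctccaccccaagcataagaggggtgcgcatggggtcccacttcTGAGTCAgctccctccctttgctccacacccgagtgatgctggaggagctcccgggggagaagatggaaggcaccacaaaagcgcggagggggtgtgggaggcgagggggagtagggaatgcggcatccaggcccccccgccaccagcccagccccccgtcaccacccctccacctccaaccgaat
Darc (chr1:173333504-173333753, minus strand): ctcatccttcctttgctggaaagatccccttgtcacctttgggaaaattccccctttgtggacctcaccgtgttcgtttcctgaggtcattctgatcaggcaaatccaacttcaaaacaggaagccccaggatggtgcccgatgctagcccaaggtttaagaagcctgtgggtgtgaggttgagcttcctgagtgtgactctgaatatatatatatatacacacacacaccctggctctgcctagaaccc
The motif of AP-1, the dimer of Fos and Jun proteins, was TGACTCA. That of CRE, bound by factors that respond to cyclic AMP, was TGACGTCA. The E-box, bound by Myc and clock proteins, was CACGTG. The GC box, bound by Sp1, was GGGCGG. The TATA box was TATAAA, and the last motif was the CCAAT box. The Cadm3 window held 1 AP-1 match, on the strand opposite to the gene, and 4.46% of 32851 such mouse windows hold that motif. The Darc window held none of the 6. A match or its lack describes these letters only.

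Some genes of proteins that airway and lung secrete rose. Of 15 tested genes on the list of airway and secretory epithelium, 5 rose and 0 fell, against 0.234% of all tested genes called higher. The list median was 4.23 against 0.02 over all genes. The list was chosen with earlier results of these data known, so neither value is a test of it. Members nearly without counts in wild type could rise but hardly fall. Sftpd and Sftpa1 encode collectins of lung surfactant that bind microbes. Sftpd measured 2.76, 10.4 and 5.19 CPM in the Arid2-labelled group against 0.0910, 0.0569 and 0.0297 CPM in wild type, from 1237 and 6 counts in all (log2 fold change 6.63, SE 0.66, adjusted p = 0.00834). Sftpa1, next to Sftpd in RefSeq order, measured 5.11, 13.1 and 7.63 CPM in the Arid2-labelled group against 0.0910, 0.256 and 0.119 CPM in wild type (log2 fold change 5.76, SE 0.68, adjusted p = 0.0132). Both were almost without counts in every wild-type library and reached no more than 13.1 CPM in the Arid2-labelled group, highest in replicate 2 for both.

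Scgb3a1, a secretoglobin of airway secretory cells, measured 15.3, 13.1 and 22.99 CPM in the Arid2-labelled group against 0.334, 0.285 and 0.534 CPM in wild type (log2 fold change 5.47, SE 0.45, adjusted p = 0.00261). Bpifb1, a secreted protein of airway mucosa, measured 0.913, 1.99 and 1.57 CPM in the Arid2-labelled group against 0.0303, 0.0285 and 0.0890 CPM in wild type (log2 fold change 4.85, SE 0.65, adjusted p = 0.021). The gel-forming mucin gene Muc5b measured 2.48, 2.63 and 2.94 CPM in the Arid2-labelled group against 0.121, 0.199 and 0.0890 CPM in wild type (log2 fold change 4.26, SE 0.65, adjusted p = 0.029). A further 3 members had values of similar size and did not pass. Sftpb, a surfactant protein of lung alveoli, had a log2 fold change of 4.23 (adjusted p = 0.0527, SE 0.77). The club cell secretoglobin Scgb1a1 had a log2 fold change of 5.12 (adjusted p = 0.126, SE 1.34) and the antimicrobial lectin Reg3g had a log2 fold change of 4.39 (adjusted p = 0.129, SE 1.17). Foxj1, which drives formation of motile cilia, measured 0.991, 1.02 and 0.835 CPM in the Arid2-labelled group against 0.728, 0.711 and 0.119 CPM in wild type (adjusted p = 0.508). The groups overlapped for 5 of the 15, namely Bpifa1, Cyp2f2, Sftpc, Scgb3a2 and Scgb1c1. Bpifa1, a secreted protein of upper airway epithelium, measured 31.5, 22.4 and 143 CPM in the Arid2-labelled group against 146, 97.1 and 71.8 CPM in wild type, and Cyp2f2, a cytochrome of club cells, measured 9.75, 7.81 and 30.2 CPM in the Arid2-labelled group against 14.3, 29.9 and 18.7 CPM in wild type. Sftpc, which alveolar type II cells make, measured 0.462, 0.344 and 1.30 CPM in the Arid2-labelled group against 0.334, 0.996 and 0.504 CPM in wild type. Summed over the list, the level was 95.1, 113 and 302 CPM in the Arid2-labelled group and 169, 141 and 99.6 CPM in wild type, and the groups overlapped. The part of airway tissue in these values was not tested. The highest adjusted p in fits without 1 library was 0.0352 for Scgb3a1, 0.0457 for Sftpd, 0.0759 for Sftpa1, 0.125 for Bpifb1 and 0.141 for Muc5b.

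The windows before the annotated starts of Scgb3a1 and Sftpa1 are shown as those of a secretoglobin and a surfactant gene that both rose.
Scgb3a1 (chr11:49663345-49663594, plus strand): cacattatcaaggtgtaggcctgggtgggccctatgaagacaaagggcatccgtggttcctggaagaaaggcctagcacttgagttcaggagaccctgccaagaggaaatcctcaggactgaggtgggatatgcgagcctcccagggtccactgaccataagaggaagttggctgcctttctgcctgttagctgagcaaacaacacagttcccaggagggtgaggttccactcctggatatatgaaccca
Sftpa1 (chr14:41131538-41131787, plus strand): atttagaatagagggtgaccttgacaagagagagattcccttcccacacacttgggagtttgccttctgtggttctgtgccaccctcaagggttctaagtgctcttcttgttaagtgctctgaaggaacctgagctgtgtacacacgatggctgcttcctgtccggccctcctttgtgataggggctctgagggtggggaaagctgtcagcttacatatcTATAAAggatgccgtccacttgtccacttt
Capitals mark 1 TATA box match in the Sftpa1 window, a motif held by 12.4% of all windows. The Scgb3a1 window held none of the 6 motifs.

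Bbox1, Galns and Sord, which encode enzymes, also rose. Bbox1, which catalyses the last step of carnitine synthesis, measured 18.2, 21.99 and 11.7 CPM in the Arid2-labelled group against 1.88, 0.740 and 1.81 CPM in wild type (log2 fold change 3.55, SE 0.54, adjusted p = 0.029). It was the 1 call among 12 genes of carnitine synthesis and the carnitine shuttle, against 0.234% of all genes called higher. The median of these 12 was 0.03. Galns, a lysosomal sulfatase that degrades keratan and chondroitin sulfate, measured 366, 315 and 395 CPM in the Arid2-labelled group against 78.98, 154 and 71.1 CPM in wild type (log2 fold change 1.82, SE 0.27, adjusted p = 0.0275). Sord, sorbitol dehydrogenase, which turns sorbitol into fructose, measured 459, 550.3 and 569 CPM in the Arid2-labelled group against 191, 190.2 and 209.6 CPM in wild type (log2 fold change 1.42, SE 0.22, adjusted p = 0.029). Galns overlaps Trappc2l in the annotation, so its level is uncertain. In fits without 1 library the adjusted p reached 0.129 for Bbox1, 0.129 for Galns and 0.133 for Sord.

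Other rises were in single genes of larger families. Pde4c, a phosphodiesterase that degrades cyclic AMP, measured 10.5, 11.5 and 16.01 CPM in the Arid2-labelled group against 3.37, 2.48 and 3.14 CPM in wild type (log2 fold change 2.08, SE 0.32, adjusted p = 0.0311). It was the 1 call among 26 genes of phosphodiesterases and protein kinase A, whose median was -0.02. Over all genes 0.234% were called higher. The sodium-activated potassium channel gene Kcnt1 measured 9.02, 13.3 and 15.5 CPM in the Arid2-labelled group against 3.85, 3.70 and 2.28 CPM in wild type (log2 fold change 1.94, SE 0.31, adjusted p = 0.0345), the 1 call among 22 potassium channel genes, with a median of 0.21. S100a5, of the S100 family of calcium-binding proteins, measured 5.54, 4.12 and 5.75 CPM in the Arid2-labelled group against 1.15, 1.59 and 0.771 CPM in wild type (log2 fold change 2.13, SE 0.29, adjusted p = 0.0224), the 1 call among 13 S100 genes, with a median of -0.13. Slc12a5, a potassium-chloride cotransporter, rose by 1.39 (SE 0.21) on the log2 scale. Ric3, a chaperone of nicotinic receptors, rose by 1.46 (SE 0.15) and the peptide hormone gene Adm2 by 2.61 (SE 0.45). The translation initiation factor gene Eif3j rose by 1.66 (SE 0.22). Ric3 overlaps Tub and Eif3j overlaps Spg11 in the annotation, so both levels are uncertain. In fits without 1 library the adjusted p reached 0.141 for Pde4c, 0.135 for Kcnt1, 0.113 for S100a5, 0.129 for Slc12a5, 0.0584 for Ric3, 0.192 for Adm2 and 0.105 for Eif3j.

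**Figure D2:**
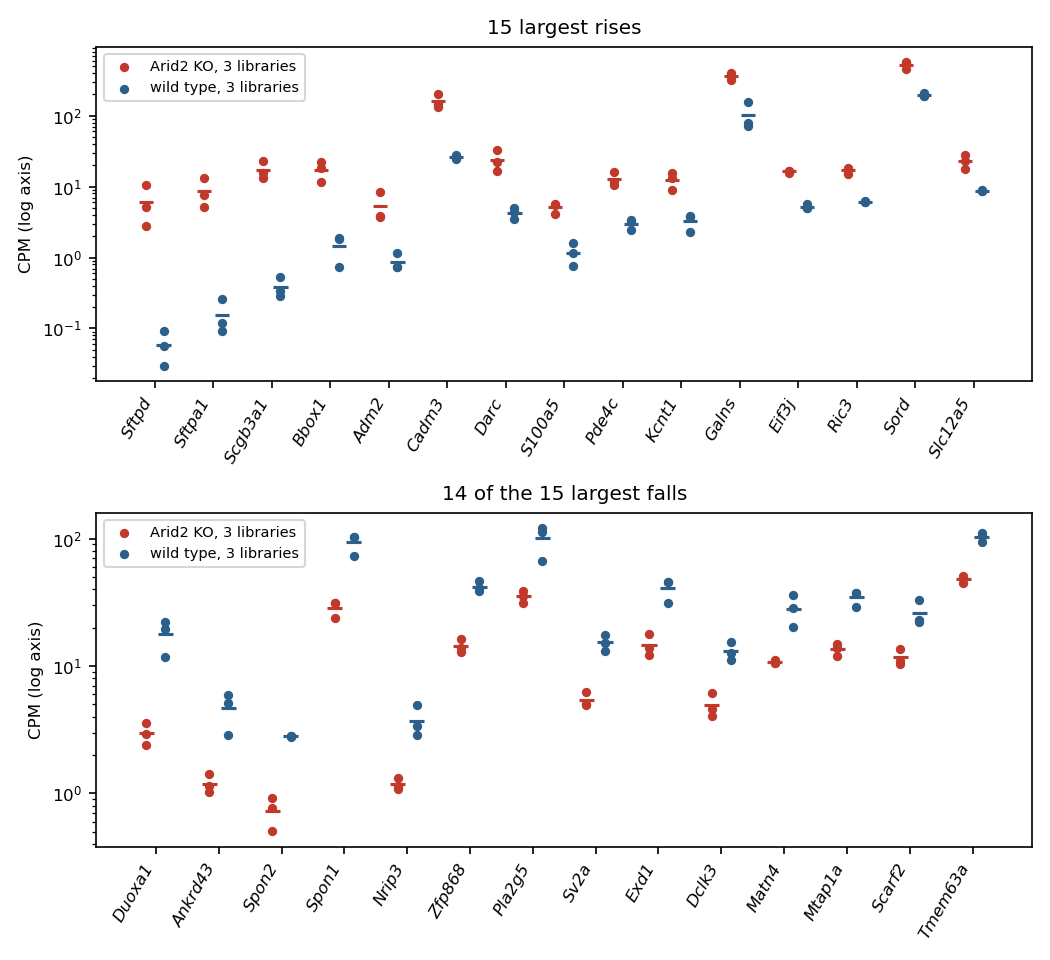
CPM on a log axis for the 15 largest called rises (upper panel) and 14 of the 15 largest called falls (lower panel) among genes averaging at least 1 on the log2 CPM scale, leaving out provisional symbols, some of which fell further. Red points are the 3 Arid2-labelled libraries, blue points the 3 wild-type libraries and short lines the group means; no gene shown has overlapping groups, and the levels run from 0.0297 CPM for Sftpd in wild type to 569 CPM for Sord.

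Spon1, Spon2, Pla2g5, Matn4, Fbln1 and Dkk3, which encode secreted proteins, fell. Spon1, which encodes F-spondin, measured 31.1, 31.2 and 24.01 CPM in the Arid2-labelled group against 103, 104 and 73.4 CPM in wild type (log2 fold change -1.70, SE 0.21, adjusted p = 0.0159), and the related Spon2 measured 0.924, 0.501 and 0.771 CPM in the Arid2-labelled group against 2.82, 2.82 and 2.76 CPM in wild type (log2 fold change -1.93, SE 0.25, adjusted p = 0.0201). Pla2g5, a secreted phospholipase that frees fatty acids from membrane lipids, measured 31.4, 38.6 and 35.6 CPM in the Arid2-labelled group against 112, 122 and 67.3 CPM in wild type (log2 fold change -1.51, SE 0.20, adjusted p = 0.021). The groups did not overlap for any of the 3. The matrilin gene Matn4 had a log2 fold change of -1.39 (SE 0.24). For Fbln1, a fibulin of elastic fibres and basement membranes, it was -1.003 (SE 0.16), and for Dkk3, a secreted protein of the Dickkopf family, -1.09 (SE 0.13). Matn4 overlaps Rbpjl in the annotation and its level is uncertain. In fits without 1 library the adjusted p reached 0.0906 for Spon1, 0.0906 for Spon2, 0.109 for Pla2g5, 0.161 for Matn4, 0.149 for Fbln1 and 0.0837 for Dkk3.

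Spon1 and Spon2 were the 2 calls on a list of 25 genes of matrix proteases, crosslinkers and elastic fibres, against 0.322% of all genes called lower. Both encode secreted proteins outside those classes, and no other member of the list passed by edgeR in the fit of 9 libraries. DESeq2 called 1 of the 25 higher and 9 lower, limma-voom 0 and 3, and edgeR with the 6 libraries alone 0 and 5. The list was chosen with earlier results of these data known, so the share is no test of it. At an unadjusted p under 0.05, 9 of the 25 were lower and 1 higher, against 7.02% of all genes lower. The list median was -0.30. All Arid2-labelled libraries lay below wild type for 11 of them, against 12.6% of all genes. Fbn2, a fibrillin of elastic microfibrils, had a log2 fold change of -1.76 (adjusted p = 0.0525, SE 0.31), just outside the threshold. The membrane collagenase Mmp14 had a log2 fold change of -0.64 (adjusted p = 0.0527, SE 0.12), the gelatinase Mmp2 -0.51 (SE 0.10, adjusted p = 0.0572) and the collagen crosslinker Lox -1.11 (SE 0.22, adjusted p = 0.0694). Collagens held 0 calls of 20, with 0 higher and 3 lower at an unadjusted p under 0.05 (DESeq2 called 0 and 2, limma-voom 0 and 0), and a median log2 fold change of -0.07. Fbln1, whose call was lost with the muscle covariate, without the thymocyte-marked libraries and with the 6 libraries alone, was the 1 call among 13 fibroblast markers, whose median was -0.22. Lum and Dcn, proteoglycans of collagen fibrils, had -0.99 (adjusted p = 0.0951) and -0.70 (adjusted p = 0.167). Summed, the fibroblast markers were at 2470.2, 2753 and 2786 CPM in the Arid2-labelled group and 3166, 2826 and 3138 CPM in wild type, with no overlap. The part of fibroblast number in the matrix values was not tested.

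The remaining named falls were in genes of differing roles. Tmem63a, a mechanically gated cation channel, measured 45.2, 48.9 and 50.9 CPM in the Arid2-labelled group against 94.6, 105 and 110.1 CPM in wild type, with tight groups (log2 fold change -1.09, SE 0.12, adjusted p = 0.0102). Scarf2, a scavenger receptor, had a log2 fold change of -1.16 (SE 0.20). The synaptic vesicle glycoprotein gene Sv2a had -1.502 (SE 0.18) and the microtubule-associated protein gene Mtap1a -1.35 (SE 0.20). The kinase gene Dclk3 had -1.42 (SE 0.24) and the zinc finger gene Zfp868 -1.56 (SE 0.19). Nrip3 had -1.65 (SE 0.29), Exd1 -1.48 (SE 0.21) and Ankrd43 -1.96 (SE 0.32). Mtap1a overlaps Ppip5k1 and Trp53bp1 in the annotation and its level is uncertain. In fits without 1 library the adjusted p reached 0.0715 for Tmem63a, 0.161 for Scarf2, 0.0806 for Sv2a, 0.123 for Mtap1a, 0.154 for Dclk3, 0.0806 for Zfp868, 0.17 for Nrip3, 0.117 for Exd1 and 0.144 for Ankrd43.

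Of these 30 largest rises and falls, 3 passed in all 9 fits without 1 library, namely Cadm3, Scgb3a1 and Sftpd. Leaving out Arid2-labelled replicate 1, 2 or 3 ended 16, 27 or 25 of the 30 calls. Leaving out wild-type replicate 1, 2 or 3 ended 26, 19 or 14. With the mean log2 level of skeletal muscle markers as a covariate, 12 of the 30 kept their call. Without the 2 libraries that carried thymocyte markers (Arid2-labelled replicate 1 and a Smarcb1-labelled one), 13 did. The 11 that kept it in both were Sftpd, Sftpa1, Scgb3a1, Cadm3, Darc, Ric3, Tmem63a, Sv2a, Zfp868, Spon1 and Spon2. Gm9781 and Gm5828, with provisional symbols, also passed in all 9 fits without 1 library. Gm9781 measured 0.506, 0.454 and 0.514 CPM in the Arid2-labelled group against 8.77, 8.91 and 10.5 CPM in wild type (log2 fold change -4.25, SE 0.29, adjusted p = 0.00149). Gm5828 measured 0.0440, 0.0313 and 0.0321 CPM in the Arid2-labelled group against 0.667, 0.996 and 0.831 CPM in wild type (log2 fold change -4.42, SE 0.33, adjusted p = 0.00149). Near-identical copies may split the reads of such genes, so both levels are uncertain. In all, 22 of the 95 calls have provisional symbols, 5 among the rises and 17 among the falls.

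A pair of called genes, chosen after their values were seen, had 0 counts throughout one group. Gzme, a granzyme protease of cytotoxic lymphocytes, had 73, 67 and 38 reads counted in the Arid2-labelled group and 0 in wild type. That is at least 27.8-fold higher against a floor of 3 counts over the group. Ccnb1ip1, a ubiquitin ligase of meiotic crossing-over, had 0 in the Arid2-labelled group and 29, 29 and 17 in wild type, at least 53.3-fold lower by the same floor. The adjusted p was 0.0159 for Gzme and 0.0132 for Ccnb1ip1, and in fits without 1 library it reached 0.0734 and 0.0584. These bounds cover counting error only.

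Of the genes that make thyroid hormone, Duoxa1 fell. Its product matures the NADPH oxidase Duox1, which makes hydrogen peroxide at the apical membrane of the follicle cell. Duoxa1 measured 2.39, 2.94 and 3.57 CPM in the Arid2-labelled group against 11.7, 19.4 and 22.1 CPM in wild type, with the highest Arid2-labelled library well under the lowest wild-type one (log2 fold change -2.58, SE 0.38, adjusted p = 0.0269). It was the 1 call among 4 genes of peroxide generation, against 0.322% of all genes called lower. Duox1 measured 1.53, 1.64 and 1.53 CPM in the Arid2-labelled group against 3.28, 4.64 and 8.48 CPM in wild type, also without overlap, and did not pass (log2 fold change -1.80, SE 0.51, adjusted p = 0.148). Duox2 and its maturation factor Duoxa2, the other oxidase pair, overlapped between groups. Duox2 measured 52.6, 66.9 and 66.9 CPM in the Arid2-labelled group against 72.4, 57.1 and 50.3 CPM in wild type (log2 fold change 0.05, SE 0.18). Duoxa2 measured 23.2, 33.3 and 33.9 CPM in the Arid2-labelled group against 28.4, 27.7 and 20.6 CPM in wild type (log2 fold change 0.24, SE 0.18). Duoxa1 and Duox1 have overlapping annotated spans, so their counts cannot be fully told apart. Leaving out any single one of the 6 libraries compared took Duoxa1 past 0.05, to an adjusted p of 0.123 at the highest. The call was also lost with the skeletal muscle covariate and without the 2 thymocyte-marked libraries.

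Duoxa1 and Duox1 start from neighbouring sites on opposite strands, and the windows before both starts are printed for that reason.
Duoxa1 (chr2:122313731-122313980, minus strand): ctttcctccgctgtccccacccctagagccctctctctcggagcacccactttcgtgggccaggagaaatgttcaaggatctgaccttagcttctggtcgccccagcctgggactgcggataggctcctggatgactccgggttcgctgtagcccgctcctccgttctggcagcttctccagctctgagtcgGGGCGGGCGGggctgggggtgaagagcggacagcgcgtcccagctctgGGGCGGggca
Duox1 (chr2:122315422-122315671, plus strand): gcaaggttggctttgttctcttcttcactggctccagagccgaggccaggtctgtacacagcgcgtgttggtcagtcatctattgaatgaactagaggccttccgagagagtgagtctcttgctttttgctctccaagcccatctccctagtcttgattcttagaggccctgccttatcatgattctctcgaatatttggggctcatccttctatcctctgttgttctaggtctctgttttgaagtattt
Capitals mark 3 GC box matches in the Duoxa1 window, a pair of which overlap, and 32.7% of all windows hold this motif. The Duox1 window held none of the 6 motifs.

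Iodide transport genes held 0 calls of 7, with 1 higher and 2 lower at an unadjusted p under 0.05 (DESeq2 called 1 and 1, limma-voom 0 and 0), and a median log2 fold change of -0.60. Slc5a5, the sodium-iodide symporter that brings iodide into the follicle cell, measured 105, 143 and 134 CPM in the Arid2-labelled group against 389, 533 and 478 CPM in wild type. Every Arid2-labelled library was under the lowest wild-type library, yet the test did not pass (log2 fold change -1.87, SE 0.43, adjusted p = 0.0944). The Smarcb1-labelled libraries, which enter the spread in that fit, measured 386, 462 and 113 CPM. With the 6 libraries alone, 0 of the 7 iodide transport genes were called higher and 1 lower. Slc26a7, an anion transporter of the thyroid, had a log2 fold change of -0.60 (adjusted p = 0.347, SE 0.27). The monocarboxylate transporter gene Slc5a8 had a log2 fold change of -0.89 (adjusted p = 0.307, SE 0.37). Kcnq1 and Kcne2 form a potassium channel of the follicle cell, with log2 fold changes of 0.89 (SE 0.23, adjusted p = 0.118) and -1.23 (SE 0.69, adjusted p = 0.447). The chloride channel genes Ano1 and Cftr had 0.39 (SE 0.33, adjusted p = 0.631) and -0.04 (SE 0.46, adjusted p = 0.976).

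The thyroid transcription factors held 0 calls of 5, with 0 higher and 1 lower at an unadjusted p under 0.05 (DESeq2 called 0 and 1, limma-voom 0 and 0), and a median log2 fold change of -0.19. Foxe1, a forkhead factor of thyroid development, measured 118, 147 and 174 CPM in the Arid2-labelled group against 241, 278 and 201 CPM in wild type, without overlap (log2 fold change -0.72, SE 0.18, adjusted p = 0.122). Nkx2-1, a homeobox factor, had a log2 fold change of -0.34 (adjusted p = 0.358, SE 0.16). The paired-box factor gene Pax8 had a log2 fold change of -0.19 (adjusted p = 0.598, SE 0.15). For Hhex and Glis3 the values were -0.09 (SE 0.13, adjusted p = 0.79) and 0.34 (SE 0.22, adjusted p = 0.511). Thyroglobulin and its iodination held 0 calls of 5, with 0 higher and 0 lower at an unadjusted p under 0.05 (DESeq2 called 0 and 0, limma-voom 0 and 0), and a median log2 fold change of -0.25. With the 6 libraries alone, 0 of these 5 were called higher and 1 lower. Tg itself had a log2 fold change of -0.01 (adjusted p = 0.994, SE 0.29). Tshr, the receptor for thyrotropin, had a log2 fold change of -0.55 (adjusted p = 0.339, SE 0.24), and Iyd, which recycles iodide from iodotyrosines, -0.22 (SE 0.14, adjusted p = 0.511). Gpx3 was at -0.25 (SE 0.30) and Pdia4 at -0.29 (SE 0.20). Thyroglobulin uptake and proteolysis held 0 calls of 9, with 0 higher and 3 lower at an unadjusted p under 0.05 (DESeq2 called 0 and 2, limma-voom 0 and 0), and a median log2 fold change of -0.10. The asialoglycoprotein receptor gene Asgr1 was at -0.94 (adjusted p = 0.144) and the cathepsin gene Ctsl at -0.56 (adjusted p = 0.129).

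Dio3, the deiodinase that inactivates thyroid hormone, was the 1 call among 11 tested deiodinases, hormone transporters and hormone receptors. Over all genes 0.322% were called lower, and the list median was -0.17. Dio3 measured 0.143, 0.235 and 0.369 CPM in the Arid2-labelled group against 1.55, 1.94 and 1.33 CPM in wild type, from 51 and 164 counts in all (log2 fold change -2.70, SE 0.42, adjusted p = 0.0323). Leaving out any single one of the 6 libraries compared took it past 0.05, to 0.149 at the highest. The call was also lost with the muscle and parathyroid covariates, without the thymocyte-marked libraries and after thinning to the smallest total.

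**Figure D3:**
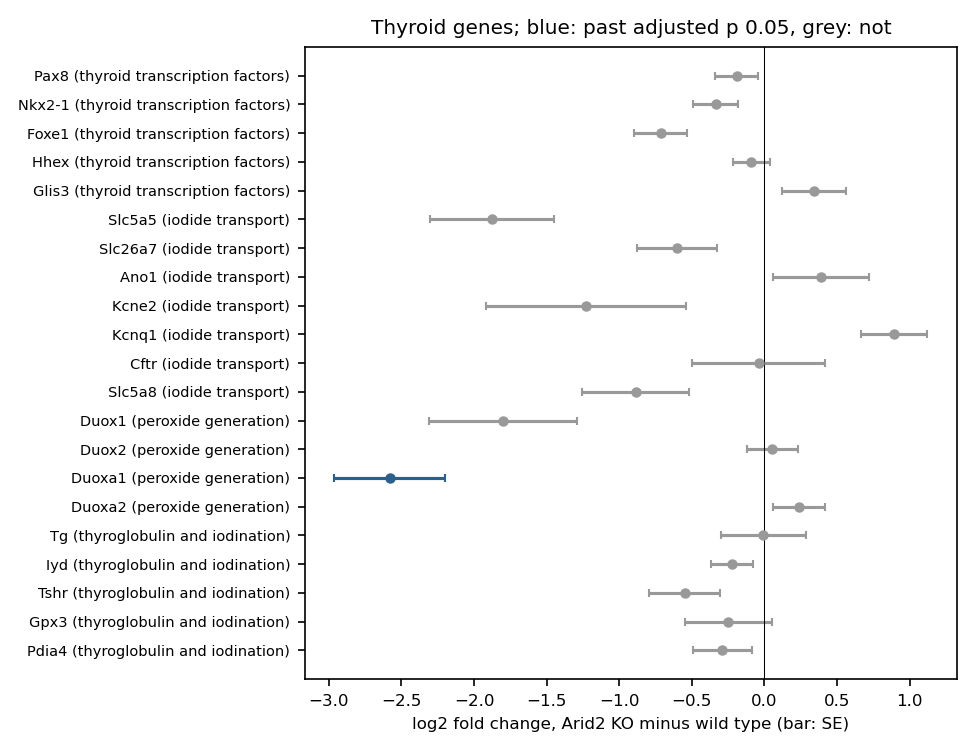
Log2 fold change, Arid2-labelled minus wild type, with a bar of 1 SE to each side for 21 genes of thyroid identity and hormone synthesis, with the list of each in parentheses. Blue is past an adjusted p of 0.05 and grey is not; Duoxa1 at -2.58 is the blue point, and Slc5a5 at -1.87 and Duox1 at -1.80 are the lowest grey points.

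Genes of mitosis stood higher together without passing the test one by one. Of 24 genes of G2 phase and mitosis, 22 had every Arid2-labelled library above every wild-type library, against 12.9% of all genes. EdgeR called 0 of them, with 24 higher and 0 lower at an unadjusted p under 0.05 (DESeq2 called 22 and 0, limma-voom 0 and 0), and a median log2 fold change of 1.40. Summed, the list was at 537, 183 and 265 CPM in the Arid2-labelled group and 95.7, 87.97 and 147 CPM in wild type. The sum was highest in Arid2-labelled replicate 1, where the thymocyte and lymphocyte markers also peaked. Without that library the list median was 1.01. Without it and the Smarcb1-labelled library that also carried Rag1, the median was 0.97. The kinesin gene Kif20a measured 12.4, 6.84 and 10.2 CPM in the Arid2-labelled group against 3.58, 3.13 and 4.48 CPM in wild type (log2 fold change 1.40, SE 0.25, adjusted p = 0.0527). Cenpf, of the kinetochore, had a log2 fold change of 1.51 (adjusted p = 0.0918, SE 0.34) and the mitotic kinase gene Cdk1 had a log2 fold change of 1.23 (adjusted p = 0.0978, SE 0.29).

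DNA replication and S phase held 0 calls of 24, with 14 higher and 0 lower at an unadjusted p under 0.05 (DESeq2 called 4 and 0, limma-voom 0 and 0), and a median log2 fold change of 0.56. Over all genes 7.86% were higher at that p. The sum of the list was 538, 354 and 359 CPM in the Arid2-labelled group and 243, 274 and 305 CPM in wild type, also highest in the replicate with thymocyte markers, and without the thymocyte-marked libraries the median was 0.35. Ccne1, the cyclin that drives entry into S phase, had a log2 fold change of 1.501 (adjusted p = 0.0527, SE 0.27) and the replication helicase gene Mcm5 had a log2 fold change of 0.82 (adjusted p = 0.134, SE 0.22). D cyclins, their kinases and the Rb family held 0 calls of 8, with 1 higher and 0 lower at an unadjusted p under 0.05 (DESeq2 called 1 and 0, limma-voom 0 and 0), and a median log2 fold change of 0.07. Ccnd1, which encodes cyclin D1, measured 61.7, 76.3 and 86.4 CPM in the Arid2-labelled group against 28.00, 30.1 and 36.2 CPM in wild type, without overlap (log2 fold change 1.25, SE 0.23, adjusted p = 0.0527). CDK inhibitors held 0 calls of 7, with 0 higher and 2 lower at an unadjusted p under 0.05 (DESeq2 called 0 and 1, limma-voom 0 and 0), and a median log2 fold change of -0.01. Cdkn2b, an inhibitor of Cdk4 and Cdk6, had a log2 fold change of -1.15 (adjusted p = 0.148, SE 0.33) and its neighbour Cdkn2a had a log2 fold change of -2.07 (adjusted p = 0.175, SE 0.64). Targets of p53 held 0 calls of 17, with 1 higher and 1 lower at an unadjusted p under 0.05 (DESeq2 called 0 and 0, limma-voom 0 and 0), and a median log2 fold change of 0.11.

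**Figure D4:**
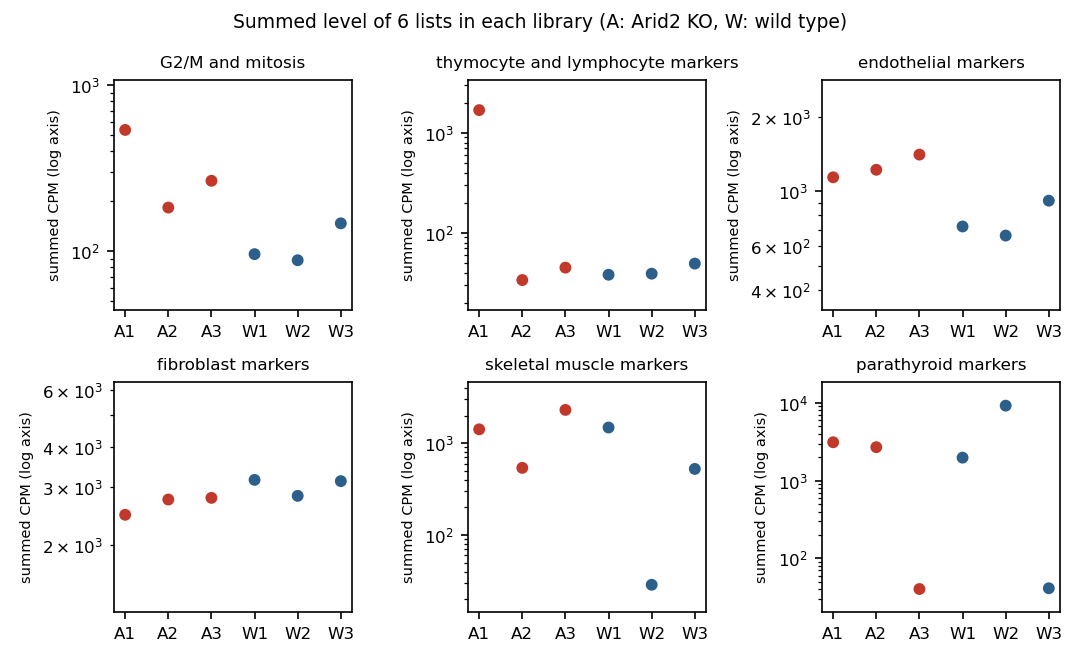
Summed CPM (log axis, with a range of its own in each panel) of the members of 6 gene lists in Arid2-labelled replicates 1 to 3 (A1 to A3, red) and wild-type replicates 1 to 3 (W1 to W3, blue). The mitosis sum runs from 87.97 to 537 CPM with all red points above all blue ones, the thymocyte sum is high in A1 alone, and the muscle and parathyroid sums overlap between groups.

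Endothelial markers stood higher in the Arid2-labelled group, with 1 call among 15, against 0.234% of all genes called higher. Emcn, a sialomucin of capillary and venous endothelium, measured 113, 123 and 144 CPM in the Arid2-labelled group against 66.2, 67.05 and 80.4 CPM in wild type (log2 fold change 0.83, SE 0.12, adjusted p = 0.0269). In all, 14 of the 15 had every Arid2-labelled library above every wild-type library, against 12.9% of all genes. The list had 13 higher and 0 lower at an unadjusted p under 0.05 (DESeq2 called 4 and 0, limma-voom 1 and 0), and a median log2 fold change of 0.75. Over all genes 7.86% were higher at that p. Pecam1, an adhesion molecule of endothelial junctions, had a log2 fold change of 0.69 (adjusted p = 0.116, SE 0.17) and the VEGF receptor gene Kdr had a log2 fold change of 0.75 (adjusted p = 0.16, SE 0.22). Summed, the markers were at 1139, 1222 and 1407 CPM in the Arid2-labelled group and 721, 663 and 917 CPM in wild type. In fits without 1 library the adjusted p of Emcn reached 0.132, and its call was also lost with the muscle covariate, with the GC trend removed and without the thymocyte-marked libraries.

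Markers of other cell types held 0 calls. Smooth muscle and pericyte markers (12 tested) had 3 higher and 0 lower at an unadjusted p under 0.05 (DESeq2 called 1 and 0, limma-voom 0 and 0), and a median log2 fold change of 0.56, and their myosin gene Myh11 had a log2 fold change of 1.01 (adjusted p = 0.136, SE 0.28). Skeletal muscle markers (13 tested) had 1 higher and 0 lower at an unadjusted p under 0.05 (DESeq2 called 0 and 0, limma-voom 0 and 0), and a median log2 fold change of 0.95. Summed, they were at 1419, 539.7 and 2308 CPM in the Arid2-labelled group and 1484, 28.8 and 526 CPM in wild type, lowest in wild-type replicate 2. With their mean log2 level as a covariate 40 genes passed, 34 of them among the 95. Thymocyte and lymphocyte markers had 5 higher and 1 lower at an unadjusted p under 0.05 (DESeq2 called 0 and 0, limma-voom 0 and 0), and a median log2 fold change of 4.38, and the median was -0.39 without the 2 libraries that carried Rag1. The median was -0.36 for C-cell markers, -0.84 for parathyroid markers (1.16 without wild-type replicate 2, 0.57 with the muscle covariate), -0.89 for erythroid genes, -0.15 for macrophage markers and 0.25 for adipocyte markers. It was 0.45 for cartilage markers and 0.30 for oesophageal and squamous markers. Of the 67 tested genes of these 7 lists, 3 were higher and 1 lower at an unadjusted p under 0.05, DESeq2 called 1 and 0, and limma-voom 0 and 0. Calca, the calcitonin gene of C cells, measured 1348, 1486 and 3244 CPM in the Arid2-labelled group against 2516, 4749 and 1863 CPM in wild type.

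Clock genes held 0 calls of 18, with 9 higher and 1 lower at an unadjusted p under 0.05 (DESeq2 called 6 and 0, limma-voom 0 and 0), and a median log2 fold change of 0.47. Over all genes 7.86% were higher and 7.02% lower at that p. The period gene Per3 measured 112, 166 and 119 CPM in the Arid2-labelled group against 64.2, 63.3 and 67.96 CPM in wild type (log2 fold change 1.02, SE 0.23, adjusted p = 0.0918). Per1 and Per2 had log2 fold changes of 1.13 (SE 0.32, adjusted p = 0.148) and 1.24 (SE 0.33, adjusted p = 0.13), both without overlap. Not all clock genes went this way: 13 of the 18 had positive fold changes and 5 negative ones. Every Arid2-labelled library was above wild type for 8 of them and below for 2. Per proteins repress their own transcription in a daily cycle. Dkk3 was the 1 call among 21 Wnt and Hippo genes, against 0.322% of all genes called lower. Ctgf, a target of the Hippo effectors, had a log2 fold change of -1.03 (adjusted p = 0.118, SE 0.26) and the Wnt receptor gene Fzd1 had a log2 fold change of -0.64 (adjusted p = 0.0944, SE 0.15). BMP and TGF-beta genes held 0 calls of 23, with 4 higher and 2 lower at an unadjusted p under 0.05 (DESeq2 called 3 and 0, limma-voom 0 and 0), and a median log2 fold change of 0.00. Grem1, a secreted BMP antagonist, measured 22.9, 42.9 and 15.1 CPM in the Arid2-labelled group against 4.79, 2.22 and 6.41 CPM in wild type (log2 fold change 2.59, SE 0.50, adjusted p = 0.0617).

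MAPK feedback and output genes held 0 calls of 20, with 3 higher and 2 lower at an unadjusted p under 0.05 (DESeq2 called 1 and 2, limma-voom 0 and 0), and a median log2 fold change of 0.21. Immediate early genes held 0 calls of 16, with 2 higher and 1 lower at an unadjusted p under 0.05 (DESeq2 called 2 and 1, limma-voom 0 and 0), and a median log2 fold change of 0.18. Jund, a subunit of AP-1, had a log2 fold change of -0.60 (adjusted p = 0.0554, SE 0.11) and the nuclear receptor gene Nr4a1 had a log2 fold change of 1.90 (adjusted p = 0.0978, SE 0.44). Tight junction and polarity genes held 0 calls of 23, with 1 higher and 4 lower at an unadjusted p under 0.05 (DESeq2 called 1 and 2, limma-voom 0 and 0), and a median log2 fold change of -0.12. Genes of ER folding, which secreted proteins such as thyroglobulin pass through, held 0 calls of 24, with 2 higher and 3 lower at an unadjusted p under 0.05 (DESeq2 called 0 and 2, limma-voom 0 and 0), and a median log2 fold change of -0.20. Peroxide defence and thioredoxin genes held 0 calls of 22, with 0 higher and 4 lower at an unadjusted p under 0.05 (DESeq2 called 0 and 2, limma-voom 0 and 0), and a median log2 fold change of -0.15. Targets of Atf4, a factor of amino acid and ER stress, held 0 calls of 16, with 1 higher and 4 lower at an unadjusted p under 0.05 (DESeq2 called 1 and 2, limma-voom 0 and 0), and a median log2 fold change of -0.04. The median was 0.10 for oxidative phosphorylation, 0.16 for glycolysis and hypoxia, 0.09 for sterol and fatty acid synthesis, 0.15 for the interferon response, -0.02 for antigen presentation and -0.16 for keratins. Of the 119 tested genes of these 6 lists edgeR called 0, 4 were higher and 3 lower at an unadjusted p under 0.05, DESeq2 called 1 and 1, and limma-voom 0 and 0.

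**Figure D5:**
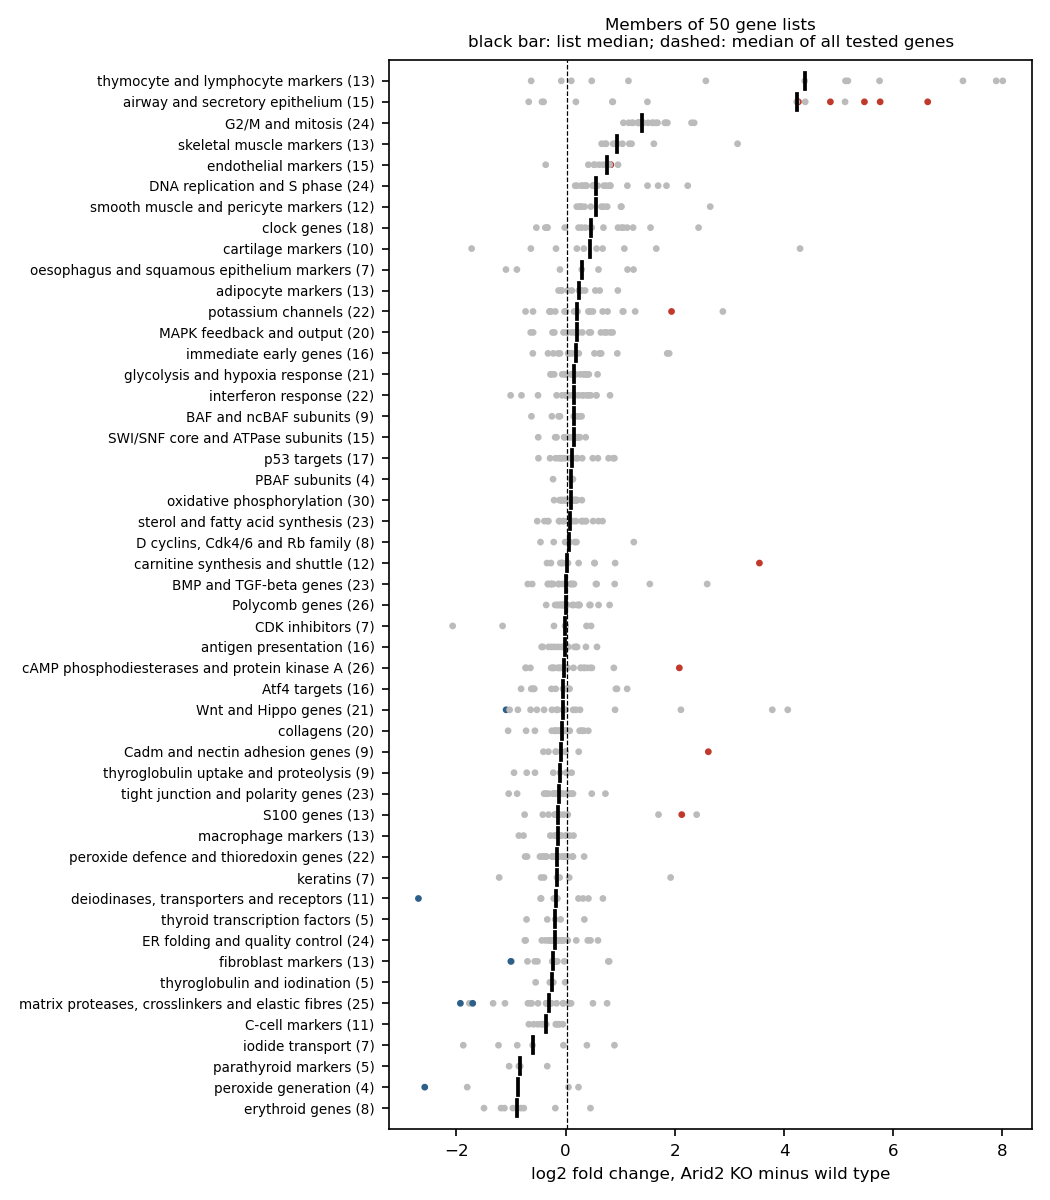
Log2 fold change, Arid2-labelled minus wild type, of each tested member (points) of 50 gene lists, with the number of tested members in parentheses. Red and blue points passed higher and lower, grey points did not pass, black bars are list medians and the dashed line is the median of all tested genes at 0.02; the thymocyte, airway and mitosis lists have the 3 highest medians, at 4.38, 4.23 and 1.40.

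The levels in the Smarcb1-labelled group were tested directly against the Arid2-labelled group, where 2779 genes passed (16.3%). Fold changes here are Arid2-labelled minus Smarcb1-labelled. Cadm3 measured 21.8, 15.1 and 21.8 CPM with the Smarcb1 label, below every Arid2-labelled library (log2 fold change 3.03, SE 0.20, adjusted p = 0.000621). Scgb3a1 measured 0.382, 0.769 and 0.271 CPM (log2 fold change 5.16, SE 0.44, adjusted p = 0.00115) and Sftpa1 2.75, 3.06 and 0.785 CPM (log2 fold change 1.97, SE 0.54, adjusted p = 0.0398). Duoxa1 measured 8.96, 7.58 and 18.6 CPM, above all 3 Arid2-labelled libraries (log2 fold change -1.98, SE 0.37, adjusted p = 0.0141). Tmem63a measured 39.2, 47.6 and 50.4 CPM, a difference that did not pass (log2 fold change 0.08, SE 0.12, adjusted p = 0.649). Among other named genes some passed and some did not. Galns, Eif3j, Wee1, Mtap1a, Fbln1, Matn4, Dclk3, Emcn and Dio3 did not (adjusted p from 0.0646 to 0.70 by edgeR). Sftpd measured 0.611, 0.815 and 0.406 CPM and passed (log2 fold change 3.31, SE 0.51, adjusted p = 0.00783). With the Smarcb1 label, Sftpd and Sftpa1 were still above every wild-type library. The Arid2-labelled libraries enter both this contrast and the one with wild type, so the 2 sets of values are not independent.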

How the data were processed

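RNA from flash-frozen mouse thyroids was extracted with TRIzol and sequenced from TruSeq libraries, per the labels' protocols. The authors deposited unnormalized read counts per gene, as whole numbers. STAR 2.4, HTSeq 0.6.1, DESeq2 and build mm9 are named, without their roles, in the submitters' processing notes, and strand use in counting is not given in the sources used here. Library pairs within a group differed beyond counting noise (chi-square per degree of freedom 47.6 to 122), so none was counted as a copy.

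Here the 9 libraries were fitted as 3 group means with edgeR 4.0.16 in R 4.3.3. The fit used filterByExpr by group, TMM scaling and the quasi-likelihood F test, with Benjamini-Hochberg adjustment over 17079 genes and a threshold of 0.05. It had 6 residual and 3.19 prior degrees of freedom and a common dispersion of 0.0776. The SE was taken from the fold and its F statistic. The members and the 51 gene lists (781 entries, 777 in the table) were chosen with earlier results of these data known. Named genes were Arid2, the 15 largest rises and falls among called genes that averaged 1 or more on the log2 CPM scale, did not overlap and had no provisional symbol, all called list members, up to 3 members with the smallest p in each list, the thyroid and PBAF lists, genes called in every fit without 1 library, and tissue and sex markers. Mmp2, Mmp14, Lox, Dcn, Sftpb, Scgb1a1, Reg3g, Foxj1, Bpifa1, Cyp2f2, Sftpc, Scgb3a2, Scgb1c1, Calca, Per1 and Per2 are named beyond that, chosen after their values were seen. Of the genes this rule takes, 1 of the 15 falls and 1 gene of the thyroid lists are not reported here, and the latter was left out of its list. Alternatives were DESeq2 1.42.0, limma-voom (limma 3.58.1), other scalings and filters, the 6 libraries alone, stricter thresholds, a robust spread, thinning to the smallest total, GC trend removal (97.3% of genes matched), parathyroid and muscle covariates, and leaving out libraries. In simulated data of 16919 genes for this comparison, edgeR found 41 of 100 genes with a 2-fold and 85 of 100 with a 4-fold change and made 4 false calls. Genes of few counts were not among the changed ones, and each gene varied independently. The simulation therefore covers neither changes in genes of few counts nor differences shared by many genes, such as tissue markers. Promoter sequences are RefSeq's on GRCm38.p6. Total counts set the precision, and since PCR copies are not marked, bounds cover counting error only.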

Additional observations from a re-analysis of the deposited data

How the results depend on the processing

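The 95 calls were 918 by the DESeq2 Wald test, 201 with the 6 libraries alone, 8 at an adjusted p under 0.01, 208 with the GC trend removed, 56 without the 2 libraries that carried thymocyte markers, 40 with a skeletal muscle covariate and 5 to 167 without 1 library (5 without Arid2-labelled replicate 2, 167 without Smarcb1-labelled replicate 1). In the order of the first 4 settings the 17 called list members became 104, 34, 3 and 29, with the muscle covariate 7, and without 1 library 3 to 26. Both counts stayed within 1.5 times under the other scalings and filters, limma-voom, the robust spread, thinning, a fold of at least 2 and the parathyroid covariate, and the list count also without the thymocyte-marked libraries. The cause of the larger shifts was not tested. The Arid2 log2 fold change of 0.13 became -0.070 without the thymocyte-marked libraries and ran from -0.034 (without Arid2-labelled replicate 1) to 0.277 (without Arid2-labelled replicate 3). Uncalled genes near 0 turned: Cftr (0.222 by limma-voom, 0.0247 with the GC trend removed, 0.458 with the muscle covariate, -0.470 to 0.296 without 1 library), Duox2 (-0.0581 to 0.212 without 1 library), Hhex (-0.212 to 0.00572 without 1 library), Phf10 (-0.0438 without the thymocyte-marked libraries, -0.00891 to 0.168 without 1 library), Tg (0.000298 with the parathyroid covariate, 0.0109 without the thymocyte-marked libraries, 0.0344 with the muscle covariate, -0.144 to 0.113 without 1 library). For the 95 named genes whose fold change is printed, 268 values lost their call, 84 gained one and 1903 kept their side of the threshold; apart from the turns just given no direction changed. Of the values of the 51 list medians, 71 moved by more than the spread between replicates and 1153 did not. The sign of 18 of the 51 medians turned in at least 1 alternative, among them parathyroid markers (-1.49 to 1.16), PBAF subunits (-0.057 to 0.166), p53 targets (-0.108 to 0.198), immediate early genes (-0.152 to 0.398), adipocyte markers (-0.155 to 1.12) and oesophageal and squamous markers (-0.585 to 0.603). No paired analysis was possible because the labels give no replicate numbers that pair libraries across groups. Dio3, with 51 counts in the Arid2-labelled group and 164 in wild type, lost its call after thinning. Matn4, with 2339 and 2869 counts, lost its call too, while Gm5828, with 8 and 85, kept it. The part of depth in these calls was not tested.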

Other observations

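Several called genes lay close together in gene order, in a listing made after the results were seen. In RefSeq order (GRCm38.p6), 92 of the 95 called genes and 16289 tested genes could be placed. When called genes at most 30 places apart in the order of tested genes were joined, 41 of the 92 fell into 16 runs. The longest held Ric3, Nrip3, Wee1, Dkk3 and Spon1, 5 of 39 tested genes, 2 higher and 3 lower. Wee1, a kinase that restrains Cdk1, was at 1.29 on the log2 scale (SE 0.22, adjusted p = 0.0457 by edgeR). The other tested genes of the run did not pass. Another run held Mtap1a, Eif3j, Sord and Duoxa1, 4 of 23 tested genes, 2 higher and 2 lower. A430105I19Rik, Gchfr, Exd1 and Ltk were 4 of 32, 1 higher and 3 lower. Darc with Cadm3 and Sftpa1 with Sftpd were adjacent pairs in which both rose. Runs begin and end on called genes, so the share of calls within a run is high by construction, and whether 41 of 92 is more than chance gives was not tested. The strain background of the groups is not given in the sources used here, and its part in these runs was not tested.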
